A study of Homo sapiens with 12 samples.

Results

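A 786-O line with inducible shRNAs against both YAP1, which encodes YAP, and WWTR1, which encodes TAZ (shYAPTAZ), was compared with a 786-O line carrying an inducible shRNA against EPAS1, which encodes HIF2A (shHIF2A). The comparison used the 3 shYAPTAZ and the 3 shHIF2A libraries of the deposited count table, 6 of 12 libraries in all, taken by their column names. 786-O comes from a clear cell renal cell carcinoma and makes no functional VHL protein. Polyadenylated RNA was measured by BRB-seq, which sequences barcoded 3′ ends, and both lines had been kept in doxycycline for 72 hours to induce their shRNAs. Per the labels, selection was with hygromycin, blasticidin or puromycin according to how many genes were silenced, so the 2 lines may have met different antibiotics. The labels call the replicates technical, and they do not say whether a line is 1 clone or a pool. No parental library and no line with a control shRNA enters, so a difference does not say which of the 2 lines moved, and a p-value measures only the spread between these libraries.

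HIF2A is the oxygen-regulated subunit of a transcription factor that pairs with ARNT and binds DNA at the core RCGTG. VHL normally marks it for destruction, and in kidney cancer cells without VHL it stays active and drives genes of blood vessel growth, glucose uptake, lipid storage and the cell cycle. YAP and TAZ are co-activators without DNA-binding domains of their own. They are held in the cytoplasm by the Hippo kinases MST and LATS, and in the nucleus they act through the TEAD factors on genes of growth, adhesion and the matrix.

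The libraries held 2272459, 3172106 and 4127139 counts in shYAPTAZ and 3526537, 3227893 and 2867807 counts in shHIF2A. At these depths 3 counts equal 0.727 to 1.32 CPM of a library's total. Levels below are CPM of the effective library size, that is after TMM scaling. Mitochondrially encoded RNA made up 6.54% to 8.40% of counts in the shYAPTAZ libraries and 7.20% to 9.37% of the shHIF2A libraries. Replicates differed by more than counting error (chi-squared per degree of freedom 5.18 to 20.2). Renal and clear cell carcinoma markers were present at a mean of at least 1 CPM for 17 of 29 genes, among them PAX8, and epithelial genes for 18 of 28. Of 18 blood cell markers 13 had no count in any of the 6 libraries, and the 18 summed to 1.68 to 6.35 CPM in shYAPTAZ and 0.618 to 4.5 CPM in shHIF2A. In bulk RNA, fewer cells of a type and less RNA per cell cannot be told apart.

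Of 11256 genes tested, 917 were called higher in shYAPTAZ than in shHIF2A (8.15%) and 710 lower (6.31%), with edgeR's quasi-likelihood test at a Benjamini-Hochberg adjusted p under 0.05. A fold of at least 2 was reached by 643 of the higher and 356 of the lower genes, and a fold of at least 8 by 143 and 54. The 3 and 3 libraries did not overlap for 1610 of the 1627 called genes, and for 33.2% of all genes tested. The median log2 fold change over all tested genes was 0.02. Without shHIF2A replicate 2 the test called 487 genes higher and 305 lower, and without shYAPTAZ replicate 2 it called 542 and 330. The count of lower genes was also 409 without shHIF2A replicate 1, 448 without shHIF2A replicate 3 and 1073 in a fit of all 12 libraries. Each called gene that is named below kept its call under each of the 17 alternative settings that tested it, unless its adjusted p under another setting is given.

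**Figure D1:**
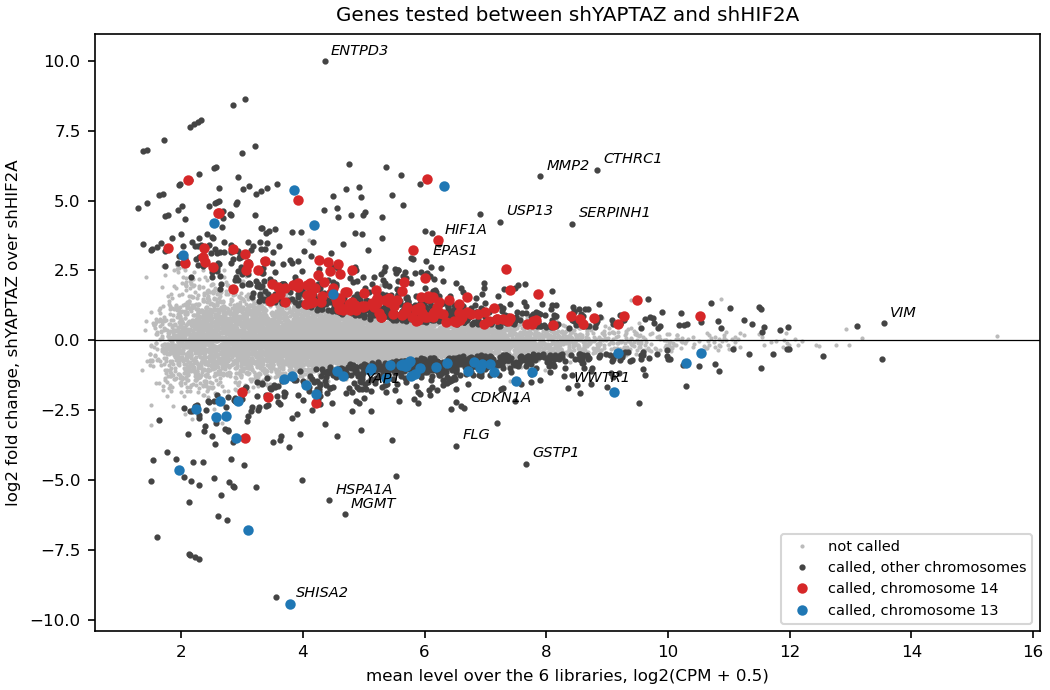
Log2 fold change, shYAPTAZ over shHIF2A (vertical), against the mean level over the 6 libraries as log2(CPM + 0.5) (horizontal), for the 11256 genes tested, with called genes dark and those of chromosomes 14 and 13 in colour. Called genes lie on both sides of 0, those of chromosome 14 mostly above it and those of chromosome 13 mostly below it. Fitted values of genes with no count in 1 group, such as ENTPD3 and SHISA2, depend on the fit's prior count and are not fold sizes.

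Each shRNA target was lower in the line that carries its shRNA. EPAS1 (ENSG00000116016, chromosome 2, 46293667 to 46386697, hg38) had 172, 109.8 and 58.3 CPM in shYAPTAZ, against 11.8, 17.3 and 18.4 CPM in shHIF2A. All 3 shYAPTAZ libraries lay above all 3 shHIF2A libraries, but they differed among themselves, with replicate 1 highest and replicate 3 lowest. The fold was 7.12 (log2 2.83 ± 0.36 SE, edgeR adjusted p = 0.000194). YAP1 (ENSG00000137693, chromosome 11, 102110447 to 102233424, hg38) had 21.8, 10.2 and 10.3 CPM in shYAPTAZ, against 48.2, 46.1 and 42.9 CPM in shHIF2A (log2 -1.73 ± 0.32 SE, edgeR adjusted p = 0.00309). WWTR1 (ENSG00000018408, chromosome 3, 149517235 to 149736714, hg38) had 146, 143 and 169 CPM in shYAPTAZ, against 517, 513 and 468 CPM in shHIF2A, 3.28-fold lower (log2 -1.71 ± 0.14 SE, edgeR adjusted p = 6.89e-06). Neither gene's libraries overlapped between the lines, and residual mRNA of both was measured in every shYAPTAZ library.

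Among the HIF subunits and oxygen sensors, 7 of 10 genes had enough counts. Of the 7, 2 were called higher in shYAPTAZ (28.6%, against 8.15% of all tested genes) and 0 lower (against 6.31%). Beside EPAS1, itself an shRNA target, the gene called higher was HIF1A (ENSG00000100644, chromosome 14, 61695513 to 61748259, hg38), the gene of the other main HIF subunit. It had 150.04, 147 and 113 CPM in shYAPTAZ, against 11, 14.2 and 9.004 CPM in shHIF2A, 11.9-fold higher (edgeR adjusted p = 1.5e-06). HIF1A lies on chromosome 14, whose genes as a group differed between the lines, as described further on. ARNT, the partner of both subunits, averaged 21.1 ± 3.96 CPM in shYAPTAZ and 15.8 ± 1.92 CPM in shHIF2A (adjusted p = 0.437), and VHL averaged 47.4 ± 11.6 CPM and 38.1 ± 13.7 CPM in the same order (adjusted p = 0.551). ARNT2, a second partner, averaged 3.76 ± 2.47 CPM in shYAPTAZ and 11.9 ± 1.76 CPM in shHIF2A and missed the test (adjusted p = 0.0785), but was called lower in the fit of all 12 libraries (adjusted p = 0.0257). Of the TEAD factors, TEAD1, TEAD3 and TEAD4 were tested and none was called (adjusted p = 0.206, 0.883 and 0.71).

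**Figure D2:**
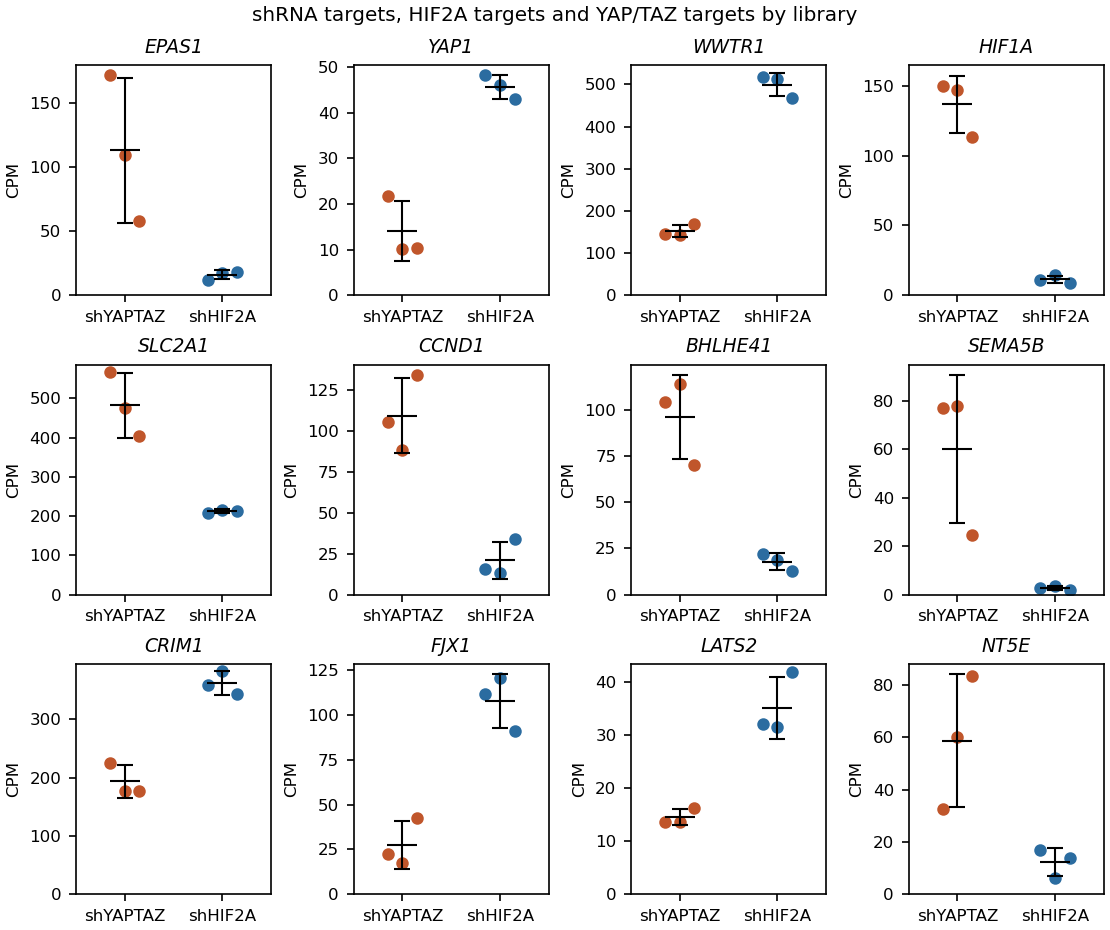
Level in CPM (vertical) of 12 genes in the 3 shYAPTAZ libraries (left, orange) and the 3 shHIF2A libraries (right, blue) of each panel, with points for libraries and bars for mean ± SD. EPAS1, HIF1A and the 4 HIF2A targets of the middle row lie higher in shYAPTAZ, while YAP1, WWTR1, CRIM1, FJX1 and LATS2 lie lower and NT5E higher.

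Of 37 listed HIF2A targets 28 were tested: 12 were higher in shYAPTAZ (42.9%, against 8.15% of all tested genes), 2 were lower (7.14%, against 6.31%) and 14 were not called. The median log2 fold change of the 28 was 0.57, against 0.02 over all genes, and 21 of 28 lay above 0. Without shYAPTAZ replicate 1 that median was 0.33. The count of higher targets was 8 without shHIF2A replicate 1 or 2 and 9 without shYAPTAZ replicate 2. It was 10 with limma-voom or thinned counts, and 14 without shYAPTAZ replicate 3. Targets of glucose uptake, the cell cycle and vessel growth were among those called. SLC2A1, the glucose transporter GLUT1, had 568, 476 and 403 CPM in shYAPTAZ, against 208, 217 and 214 CPM in shHIF2A, 2.26-fold higher (log2 1.18 ± 0.15 SE, edgeR adjusted p = 0.000219). CCND1, cyclin D1, which drives entry into S phase, had 106, 88.5 and 134 CPM in shYAPTAZ, against 15.9, 13 and 33.9 CPM in shHIF2A, 5.27-fold higher (adjusted p = 0.000348). For both genes the lowest shYAPTAZ library lay above the highest shHIF2A library.

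BHLHE41, a repressor of the circadian clock, had 104, 114 and 70.3 CPM in shYAPTAZ, against 21.9, 18.9 and 12.8 CPM in shHIF2A (5.34-fold, adjusted p = 7.6e-05). SEMA5B, a semaphorin, had the largest fold of the list, with 77.1, 78 and 24.7 CPM in shYAPTAZ, against 2.6, 3.4 and 1.73 CPM in shHIF2A (22.6-fold, adjusted p = 5.83e-05). Replicate 3 of shYAPTAZ lay well below the other two, and still above every shHIF2A library. ADM, the vasodilator peptide adrenomedullin, averaged 67.3 ± 30.9 CPM in shYAPTAZ and 17.4 ± 6.66 CPM in shHIF2A (SD, n = 3 each; 3.83-fold, adjusted p = 0.00267). CA12, a membrane carbonic anhydrase, averaged 111 ± 64.5 CPM and 32.1 ± 5.51 CPM in the same order (3.48-fold, adjusted p = 0.00325), with shYAPTAZ replicate 3 well above its other replicates. VEGFA, the main growth factor of blood vessels, was picked after its values were seen: it had 160 CPM, 95.2 CPM and 90.4 CPM in shYAPTAZ, against 44.7 CPM, 56.9 CPM and 49.2 CPM in shHIF2A (log2 1.19, adjusted p = 0.00535).

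Not every listed target followed. SLC7A5, the amino acid transporter LAT1, was 2.21-fold lower in shYAPTAZ, with 172, 165 and 159 CPM, against 294, 334 and 469 CPM in shHIF2A (adjusted p = 0.000948). EGLN3, an oxygen sensor on chromosome 14 that HIF induces, ranged from 10.3 to 47.6 CPM in shYAPTAZ and from 10.2 to 15.2 CPM in shHIF2A, overlapped and was not called (adjusted p = 0.197), but was called higher without shYAPTAZ replicate 3 (adjusted p = 0.0288).

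The promoters of BHLHE41, ADM and CA12 are shown because these rule-named HIF2A targets were called higher and hold the HIF core, and that of TGFB2 because it was the called YAP/TAZ target with a TEAD core. Each line gives the 250 bases before the gene's start from RefSeq (GRCh38.p14), 5′ to 3′ on the gene's strand. In the HIF2A targets the HIF core, ACGTG or GCGTG on either strand, is in capitals. In TGFB2 only the TEAD core, CATTCC on either strand, is in capitals. TGFB2 also holds the HIF core ACGTG, which is left in lower case. The first 3 lie at chr12:26125038-26125287 (minus strand), chr11:10304823-10305072 (plus strand) and chr15:63381847-63382096 (minus strand), and the TGFB2 promoter at chr1:218345086-218345335 (plus strand).
BHLHE41: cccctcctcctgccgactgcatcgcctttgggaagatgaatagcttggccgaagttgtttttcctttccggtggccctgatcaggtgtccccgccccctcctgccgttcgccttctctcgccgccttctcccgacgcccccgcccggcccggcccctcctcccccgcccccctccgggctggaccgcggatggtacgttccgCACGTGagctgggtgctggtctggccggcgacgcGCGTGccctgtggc
ADM: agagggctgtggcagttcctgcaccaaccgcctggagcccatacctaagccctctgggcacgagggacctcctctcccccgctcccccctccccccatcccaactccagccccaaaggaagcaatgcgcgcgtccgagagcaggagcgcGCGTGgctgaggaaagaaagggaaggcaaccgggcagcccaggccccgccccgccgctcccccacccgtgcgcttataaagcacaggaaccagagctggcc
CA12: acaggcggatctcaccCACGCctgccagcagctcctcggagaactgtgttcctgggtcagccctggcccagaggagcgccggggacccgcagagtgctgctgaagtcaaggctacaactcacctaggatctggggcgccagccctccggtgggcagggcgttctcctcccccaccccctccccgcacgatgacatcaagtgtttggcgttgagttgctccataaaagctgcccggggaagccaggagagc
TGFB2: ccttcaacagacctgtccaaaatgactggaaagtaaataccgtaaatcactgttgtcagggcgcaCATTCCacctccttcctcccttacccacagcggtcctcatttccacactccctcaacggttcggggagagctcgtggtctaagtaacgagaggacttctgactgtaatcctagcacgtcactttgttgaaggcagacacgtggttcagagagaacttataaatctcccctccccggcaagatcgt
Promoters were matched for 8910 of the 11256 tested genes. The HIF core stood in 7 of the 10 matched HIF2A targets that were called higher, and in 59.0% of the matched tested genes. SLC2A1 and SEMA5B were among the targets without it. The same core stood in 3 of 4 matched YAP/TAZ targets called lower, and in 52.7% of all matched genes called higher. The TEAD core stood in 1 of 4 matched YAP/TAZ targets called lower, and in 9.39% of the matched tested genes. BHLHE41 held 3 matches, which began 48, 47 and 14 bases before its start, where the first 2 overlap as 1 palindrome read on both strands. ADM held 1 match, 101 bases before its start. A match describes these letters and is not evidence of binding.

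Of 22 listed YAP/TAZ targets 21 were tested: 7 were lower in shYAPTAZ (33.3%, against 6.31% of all tested genes), 2 were higher (9.52%, against 8.15%) and 12 were not called. Their median log2 fold change was -0.34. The count of lower targets was 3 without shYAPTAZ replicate 2 and 4 without shHIF2A replicate 1 or 2, and that of higher ones was 1 without shYAPTAZ replicate 2 or shHIF2A replicate 2 or 3. FJX1, a secreted relative of the Drosophila four-jointed kinase, had 22.2, 17.5 and 42.4 CPM in shYAPTAZ, against 112, 121 and 91.1 CPM in shHIF2A (lower by 3.87-fold, adjusted p = 0.000801). CRIM1, a transmembrane protein that binds BMPs, had 225, 178 and 177 CPM in shYAPTAZ, against 359, 383 and 344 CPM in shHIF2A (lower by 1.88-fold, adjusted p = 0.00146). LATS2, the Hippo kinase that inhibits YAP and is itself induced by it, lies on chromosome 13. It had 13.6, 13.7 and 16.3 CPM in shYAPTAZ, against 32, 31.5 and 41.9 CPM in shHIF2A (lower by 2.4-fold, adjusted p = 0.00943).

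The other 4 lower targets lost the call with a library left out, and the rule names 3 of them. AMOTL2, which tethers YAP at junctions, averaged 57 ± 11.5 CPM in shYAPTAZ and 116 ± 29.4 CPM in shHIF2A (adjusted p = 0.00919, and 0.0537 without shHIF2A replicate 1 and 0.0506 without shYAPTAZ replicate 2). TGFB2, a TGF-beta ligand, had an adjusted p of 0.0148, and of 0.073 without shHIF2A replicate 2 and 0.0804 without shYAPTAZ replicate 2. CCN1, a matricellular protein, had 249, 459.98 and 709 CPM in shYAPTAZ, against 1048, 1091 and 1181 CPM in shHIF2A. Its adjusted p of 0.0286 was above 0.05 without any of shHIF2A replicates 1 to 3 (0.0667, 0.0527 and 0.0742) or shYAPTAZ replicate 2 (0.0751), with all 12 libraries (0.0715) and with no filter (0.0879). The much used reporter gene CCN2 ranged from 53.5 to 148 CPM in shYAPTAZ and from 105 to 135 CPM in shHIF2A and was not called (adjusted p = 0.517), nor was ANKRD1 (adjusted p = 0.206). Against the list, NT5E, the ectoenzyme CD73 that makes adenosine, was higher, with 32.6, 60.2 and 83.2 CPM in shYAPTAZ, against 16.7, 6.18 and 13.9 CPM in shHIF2A (4.81-fold, adjusted p = 0.002).

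Of the Hippo pathway, 23 of 25 genes were tested, 6 were lower in shYAPTAZ (26.1%, against 6.31% of all tested genes) and 2 higher (8.70%, against 8.15%). The 2 shRNA targets, LATS2 and AMOTL2 are among the 6. WWC1, the scaffold KIBRA upstream of the Hippo kinases, had 23.1, 33.7 and 27.8 CPM in shYAPTAZ, against 84.8, 86.3 and 90.04 CPM in shHIF2A (lower by 3.07-fold, adjusted p = 0.000348). MOB1A, the co-activator of the LATS kinases, was 1.92-fold higher, at 314 ± 24.9 CPM in shYAPTAZ and 164 ± 24.3 CPM in shHIF2A (adjusted p = 0.00168). The count of higher genes fell to 1 when shYAPTAZ replicate 2 or any 1 shHIF2A replicate was left out.

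The 12 largest rises were taken where a called gene averaged 10 CPM or more and its libraries did not overlap, and larger log2 values occurred below that level. ENTPD3, an enzyme that breaks down extracellular nucleotides, had 43.5, 48.1 and 28.5 CPM in shYAPTAZ and no count in any shHIF2A library, at least 123-fold higher with 3 counts over the shHIF2A libraries as the floor. CTHRC1, a secreted protein with a collagen triple helix, had 1134, 874 and 693 CPM in shYAPTAZ, against 15.6, 12.4 and 11.1 CPM in shHIF2A, 68.7-fold higher (log2 6.10 ± 0.23 SE, edgeR adjusted p = 6.67e-09). MMP2, a gelatinase that degrades basement membrane, had 649, 442 and 319 CPM in shYAPTAZ, against 7.79, 8.97 and 7.27 CPM in shHIF2A (58.2-fold, adjusted p = 6.19e-08). For all 3 genes the lowest shYAPTAZ library lay far above the highest shHIF2A library. CDH11, the mesenchymal cadherin 11, averaged 80.6 ± 35 CPM in shYAPTAZ and 1.03 ± 0.451 CPM in shHIF2A (74.1-fold). PTN, the growth factor pleiotrophin, averaged 95.2 ± 2.37 CPM and 1.5 ± 1.4 CPM in the same order (59.8-fold), and ARTN, a ligand of the GDNF family, was 78.8-fold higher. NID2, a basement membrane protein on chromosome 14, DNAJC15, a mitochondrial co-chaperone on chromosome 13, and TSPAN2, RARRES1, POGLUT3 and GRIN2A complete the 12, at 43.6- to 54.1-fold.

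By p-value, SERPINH1 and USP13 stood beside CTHRC1 and MMP2. SERPINH1, the collagen chaperone HSP47, had 697, 656 and 602 CPM in shYAPTAZ, against 36.3, 30.3 and 41.6 CPM in shHIF2A (18.1-fold higher, adjusted p = 9.15e-09). USP13, a deubiquitinase on chromosome 3, had 359, 253 and 243 CPM in shYAPTAZ, against 15.3, 14.8 and 14.5 CPM in shHIF2A (19-fold higher, adjusted p = 8.76e-08). In both, the lowest shYAPTAZ library was far above the highest shHIF2A library.

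The 12 largest falls were taken by the same limits. SHISA2, of the Shisa family and on chromosome 13, had no count in shYAPTAZ, against 27.7, 26.6 and 25.6 CPM in shHIF2A, at least 84.7-fold lower. SLC16A4, a member of the monocarboxylate transporter family, likewise had no count in shYAPTAZ, against 28.3, 20.4 and 19 CPM in shHIF2A, at least 72.4-fold lower. GSTP1, a glutathione transferase, had 8.61, 23.2 and 21.3 CPM in shYAPTAZ, against 409.7, 389 and 362 CPM in shHIF2A (lower by 21.2-fold, adjusted p = 6.81e-07). MGMT, which removes alkyl groups from guanine in DNA, averaged 0.7005 ± 0.3997 CPM in shYAPTAZ and 49.8 ± 4.23 CPM in shHIF2A, lower by 73.4-fold. BHMT2, a methyltransferase of methionine metabolism, averaged 3.03 ± 0.413 CPM in shYAPTAZ and 88.1 ± 12.5 CPM in shHIF2A (28.6-fold lower), and FLG, filaggrin, 12.1 ± 6.47 CPM and 171 ± 37.3 CPM (13.6-fold lower). The others included HSPA1A and CLDN4, described below, and PLEKHA7, a junction protein, NDN, the imprinted gene necdin, and KCNK1, a potassium channel, at 11.9- to 31.6-fold lower. NHERF1, a scaffold of the apical membrane, was not among the 12 by size but among the smallest p, with 73.9, 64.6 and 56.4 CPM in shYAPTAZ, against 310.3, 301 and 264 CPM in shHIF2A (adjusted p = 4.4e-06).

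Matrix and mesenchymal genes differed in both directions: of 31 tested, 13 were higher in shYAPTAZ (41.9%, against 8.15% of all tested genes) and 5 lower (16.1%, against 6.31%), with a median log2 fold change of 0.45. The 3 genes of collagen VI chains on the list were among those higher. COL6A3 had 141, 111 and 107 CPM in shYAPTAZ, against 6.06, 11.7 and 5.89 CPM in shHIF2A (15-fold, adjusted p = 2.82e-06), and COL6A1 was 5.28-fold higher (adjusted p = 7.45e-05). TNC, the matrix glycoprotein tenascin C, had 209, 269 and 262 CPM in shYAPTAZ, against 84.5, 60.3 and 61.6 CPM in shHIF2A (3.58-fold, adjusted p = 4.09e-05). POSTN, periostin, lies on chromosome 13 and went against that chromosome, at 27.3 ± 8.36 CPM in shYAPTAZ and 0.584 ± 0.759 CPM in shHIF2A. VIM, vimentin, was 1.55-fold higher (adjusted p = 9.75e-05). The basement membrane collagen genes COL4A1 and COL4A2, neighbours on chromosome 13, were lower: COL4A1 had 277, 259 and 192 CPM in shYAPTAZ, against 1022, 949.8 and 627 CPM in shHIF2A (3.57-fold, adjusted p = 4.53e-05), and COL4A2 was 2.74-fold lower. LUM, the proteoglycan lumican, was also lower, at 0.424 ± 0.735 CPM in shYAPTAZ and 17.3 ± 4.84 CPM in shHIF2A. Without shYAPTAZ replicate 2 or shHIF2A replicate 2 or 3 the count of lower genes was 3. Fibroblast and pericyte markers, 9 of 14 of them at a mean of at least 1 CPM, summed to 149.6 to 307 CPM in shYAPTAZ and 125 to 152 CPM in shHIF2A. ACTA2, described below, makes up much of the shYAPTAZ sum, and the other 6 of the 7 tested markers had a log2 fold change below 0, with a median of -0.55 over the 7 and LUM called lower. The part of these markers in the matrix differences was not tested.

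Of 30 actin and adhesion genes tested, 6 were higher (20%, against 8.15% of all tested genes) and 3 lower (10%, against 6.31%). ACTA2, smooth muscle actin, had 73.4, 149 and 191 CPM in shYAPTAZ, against 16.4, 13.9 and 7.62 CPM in shHIF2A (10.8-fold higher, adjusted p = 4.64e-05), and TGFB1I1, the focal adhesion protein Hic-5, was 21.3-fold higher (adjusted p = 1.42e-05). FLNC, filamin C, had 53.9, 78.3 and 86.1 CPM in shYAPTAZ, against 237, 231 and 253 CPM in shHIF2A (lower by 3.28-fold, adjusted p = 7.12e-05), and FHL2, a LIM-domain co-factor, was 1.98-fold lower. The counts were 3 higher without shHIF2A replicate 2, 10 higher without shYAPTAZ replicate 1 and 6 lower without shYAPTAZ replicate 3. Among 15 epithelial genes tested 3 were higher (20%, against 8.15% of all tested genes) and 4 lower (26.7%, against 6.31%). KRT19, keratin 19, had 67.1, 86.6 and 53.5 CPM in shYAPTAZ, against 11.2, 8.97 and 13.5 CPM in shHIF2A (6.13-fold higher), while KRT18, keratin 18, was 1.99-fold lower (adjusted p = 0.00397). EPCAM, an epithelial adhesion molecule, had 108 counts over the shYAPTAZ libraries and 3 over the shHIF2A libraries, a ratio of 36.3 (95% exact interval 12.1 to 179). CLDN4, the tight junction protein claudin 4, went the other way, with 9.97, 6.37 and 5.04 CPM in shYAPTAZ, against 82.2, 68.3 and 91.4 CPM in shHIF2A (lower by 11.7-fold, adjusted p = 7.36e-06).

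Targets of p53, the tumour suppressor that stops the cell cycle after damage, had the lowest median of the lists with at least 4 tested members. Of 26 tested, 12 were lower in shYAPTAZ (46.2%, against 6.31% of all tested genes), 0 were higher by edgeR, and the median log2 fold change was -0.96. Of the 26, 1 was higher at an unadjusted p under 0.05, and DESeq2 and limma-voom called 0 higher. edgeR called 1 higher without shYAPTAZ replicate 3 and in the fit of all 12 libraries. The count of 12 lower was 8 without shHIF2A replicate 1 or shYAPTAZ replicate 2. It was 9 without shHIF2A replicate 2 or 3 or with thinned counts, and 14 with no filter on low counts. CDKN1A, the cyclin-dependent kinase inhibitor p21, had 26.7, 33.1 and 33.6 CPM in shYAPTAZ, against 186, 182 and 138 CPM in shHIF2A (5.38-fold lower, log2 -2.43 ± 0.20 SE, edgeR adjusted p = 7.36e-06). GDF15, a stress-induced cytokine, had 8.16, 8.28 and 7.91 CPM in shYAPTAZ, against 43.3, 41.1 and 55.8 CPM in shHIF2A (lower by 5.73-fold, adjusted p = 8e-05). PHLDA3, an inhibitor of AKT, was 2.65-fold lower (adjusted p = 0.000428), and ZMAT3, an RNA-binding protein, 3.79-fold lower (adjusted p = 0.000912). The mean of the 26 genes, as log2(CPM + 2) centred per gene, was -0.49, -0.46 and -0.38 in shYAPTAZ replicates 1 to 3. It was 0.58, 0.38 and 0.38 in shHIF2A, so the lines did not overlap.

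Cell cycle genes were less even between libraries. Of 31 mitosis genes 6 were higher in shYAPTAZ (19.4%, against 8.15% of all tested genes) and 0 lower, with a median log2 fold change of 0.56, and 0 were lower at an unadjusted p under 0.05. CENPF, a kinetochore protein, averaged 285 ± 31.8 CPM in shYAPTAZ and 112 ± 27.1 CPM in shHIF2A (2.56-fold, adjusted p = 0.000502), and MAD2L1, of the spindle checkpoint, was 2.13-fold higher (adjusted p = 0.00564). The centred mean of the list was -0.03, 0.43 and 0.52 in shYAPTAZ replicates 1 to 3 and -0.83, -0.31 and 0.22 in shHIF2A. Replicate 3 of shHIF2A therefore lay above shYAPTAZ replicate 1. The mean rose with the replicate number in both lines, and at each number shYAPTAZ lay above shHIF2A. The count of 6 became 2 without shHIF2A replicate 1 or 2, 3 without shYAPTAZ replicate 2 and 13 without shHIF2A replicate 3. It was 11 without shYAPTAZ replicate 1 or with no filter, 10 with all 12 libraries and 19 with the replicate number as a block. DESeq2 and limma-voom called 9 higher and 0 lower.

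**Figure D3:**
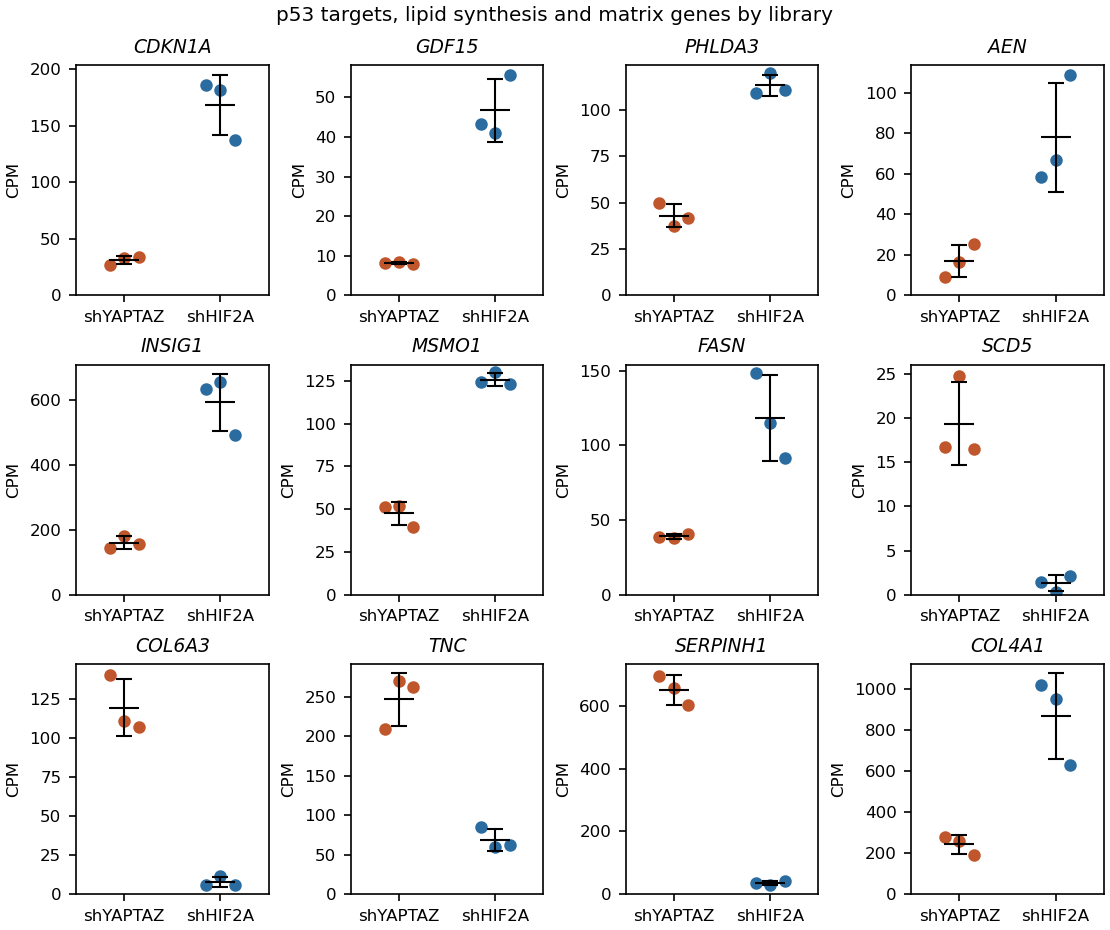
Level in CPM (vertical) of 12 genes in the 3 shYAPTAZ libraries (left, orange) and the 3 shHIF2A libraries (right, blue) of each panel, with points for libraries and bars for mean ± SD. The p53 targets of the top row and INSIG1, MSMO1 and FASN in the middle row lie lower in shYAPTAZ and SCD5 lies higher, and in the bottom row COL6A3, TNC and SERPINH1 lie higher and COL4A1 lower.

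Sterol synthesis genes were lower where they were called. Of 21 tested, 5 were lower (23.8%, against 6.31% of all tested genes) and 0 higher by edgeR, with a median of -0.49, and 0 were higher at an unadjusted p under 0.05. DESeq2 called 7 lower and 0 higher, and limma-voom 8 and 0. INSIG1, the sterol sensor that retains SREBP in the endoplasmic reticulum and is itself an SREBP target, had 145, 182 and 155 CPM in shYAPTAZ, against 633, 656 and 492 CPM in shHIF2A (lower by 3.69-fold, adjusted p = 7.36e-06). MSMO1, an enzyme of the late pathway, was 2.65-fold lower (adjusted p = 0.000351). The count was 3 without shHIF2A replicate 1 or 2, and 8 with no filter on low counts. Fatty acid synthase, FASN, had 38.5, 37.9 and 40.5 CPM in shYAPTAZ, against 148, 115 and 91.4 CPM in shHIF2A (lower by 3.03-fold, adjusted p = 0.000359). SCD5, a stearoyl-CoA desaturase, was higher, with 16.8, 24.8 and 16.5 CPM in shYAPTAZ, against 1.44, 0.309 and 2.08 CPM in shHIF2A (adjusted p = 0.000649). PLIN2, which coats lipid droplets and is a listed HIF2A target, averaged 149.8 ± 4.55 CPM in shYAPTAZ and 99.7 ± 14.8 CPM in shHIF2A (adjusted p = 0.0367, and 0.111 without shHIF2A replicate 1, 0.199 without shHIF2A replicate 2, 0.114 without shYAPTAZ replicate 2, 0.169 with all 12 libraries in the fit).

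Of 24 genes of glycolysis and hypoxic metabolism 9 were higher in shYAPTAZ (37.5%, against 8.15% of all tested genes) and 3 lower (12.5%, against 6.31%). Beside SLC2A1, LDHA, which makes lactate, had 1342, 1658 and 1730.4 CPM in shYAPTAZ, against 725, 812 and 847 CPM in shHIF2A (1.99-fold higher, adjusted p = 0.000194), and ENO1, enolase, was 1.58-fold higher (adjusted p = 0.002). GPI, glucose-6-phosphate isomerase, was 1.7-fold lower (adjusted p = 0.0043). The count of higher genes was 5, and of lower genes 1, without shHIF2A replicate 2 or 3 or shYAPTAZ replicate 2, and the count of lower genes was also 1 without shHIF2A replicate 1. Transcripts of the mitochondrial genome were mostly lower: of 13, 8 were lower (61.5%, against 6.31% of all tested genes) and 1 higher. MT-ND1, of complex I, had 1051, 943 and 1045 CPM in shYAPTAZ, against 1989, 2053 and 1624 CPM in shHIF2A (lower by 1.86-fold, adjusted p = 0.000256), and MT-CO3, of complex IV, was 1.6-fold lower. The count of 8 was 5 without shHIF2A replicate 1 or 2, and that of 1 was 0 without shHIF2A replicate 2. The share of all counts from the mitochondrial genome overlapped between the lines, as given above.

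MHC class I genes, which present peptides to T cells, were higher where called. All 14 of the list had a log2 fold change above 0, 6 were called higher (42.9%, against 8.15% of all tested genes) and 0 lower by edgeR, and 0 were lower at an unadjusted p under 0.05. DESeq2 called 6 higher and limma-voom 5, each with 0 lower. HLA-B had 3185, 2264 and 1733 CPM in shYAPTAZ, against 1083, 963 and 809.7 CPM in shHIF2A (2.51-fold, adjusted p = 0.000445), and HLA-C was 2.76-fold and HLA-F 4.39-fold higher (adjusted p = 0.000216 and 0.00604). The HLA genes are paralogs in close sequence, so reads may have been shared between them. They lie on chromosome 6, as do PSMB9 and PSMB8 named below. Of the 578 tested genes of chromosome 6, 72 were higher (12.5%) and 11 lower (1.90%), with a median log2 fold change of 0.31. The part of chromosome 6 in the differences of these genes was not tested. ERAP2, a peptidase that trims peptides for MHC class I, was 1.77-fold higher (adjusted p = 0.00551). Of 24 interferon-stimulated genes tested 4 were higher and 4 lower, 16.7% each, against 8.15% and 6.31% of all tested genes. IFI44L and the immunoproteasome subunits PSMB9 and PSMB8 were 4.32-, 2.4- and 1.71-fold higher, while BST2 (tetherin) and ISG15 were 3.33- and 2.72-fold lower, at 70.3 ± 17.4 CPM and 45.5 ± 9.71 CPM in shYAPTAZ and 233 ± 15.2 CPM and 123 ± 2.34 CPM in shHIF2A. The count of lower interferon genes was 2 without shYAPTAZ replicate 1 or 2 or shHIF2A replicate 2 or 3, and with counts thinned to the smallest library.

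Heat shock genes were lower where called, except 1. Of 15 tested, 4 were lower (26.7%, against 6.31% of all tested genes) and 1 higher, and 7 were lower without shYAPTAZ replicate 3. HSPA1A, the inducible HSP70, had 1.81, 0.637 and 0.24 CPM in shYAPTAZ, against 44.7, 33.4 and 46.1 CPM in shHIF2A (lower by 51.8-fold, adjusted p = 1.15e-05). It has a near-identical copy, HSPA1B, so its reads may have been split between both. BAG3 and HSPB8, partners in one chaperone complex, were 2.37- and 2.21-fold lower (adjusted p = 0.00161 and 0.000359), and HSPH1, on chromosome 13, 2.16-fold lower. HSP90AA1, on chromosome 14, was the gene called higher (1.83-fold, adjusted p = 0.000811).

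**Figure D4:**
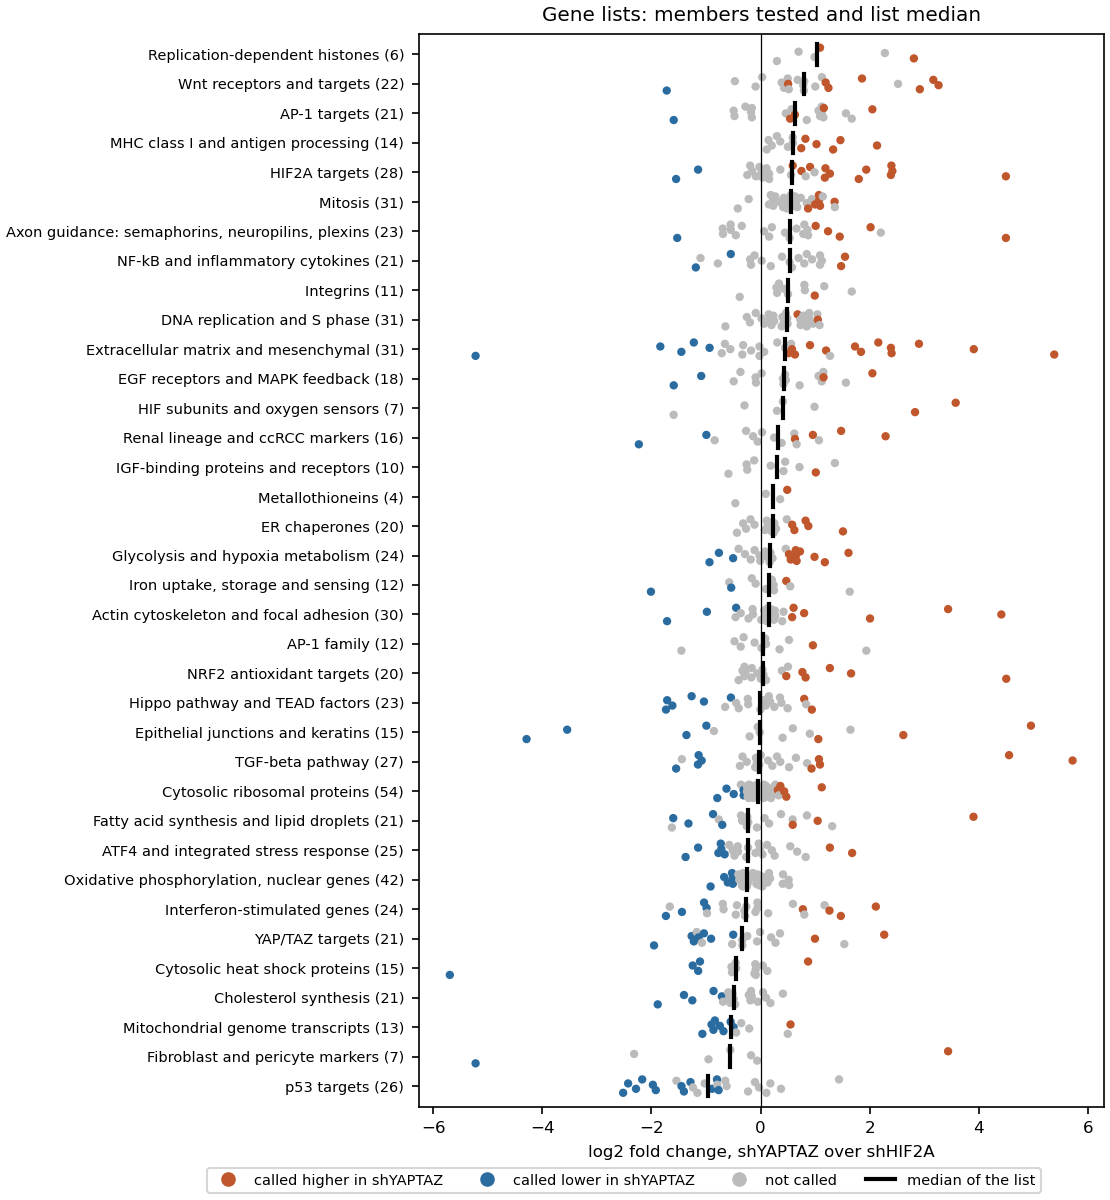
Log2 fold change, shYAPTAZ over shHIF2A (horizontal), of every tested member of each gene list with at least 4 tested members (rows, number tested in brackets), with black bars for list medians. Medians run from -0.96 for p53 targets to 1.04 for replication-dependent histones, and most lists hold members on both sides of 0. Of 14 histone genes 6 were tested and 2 called higher (33.3%, against 8.15% of all tested genes). With 1 library left out, between 0 and 2 of them were called higher.

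Chromosome 14 as a whole was higher in shYAPTAZ, or lower in shHIF2A, which this comparison cannot tell apart. Of its 386 tested genes 151 were called higher (39.1%, against 8.15% of all tested genes) and 4 lower (1.04%, against 6.31%). The median log2 fold change of the chromosome was 0.82, a fold of 1.77. Its genes made up 16.5% of all genes called higher, against 3.43% of all genes tested. Counts of chromosome 14 took 2.57%, 2.55% and 2.73% of the 3 shYAPTAZ libraries, against 1.49%, 1.51% and 1.54% of the 3 shHIF2A libraries, with no overlap. The shift ran along the chromosome: in 4 consecutive segments of 96 or 97 tested genes each, the medians were 0.73, 0.86, 0.85 and 0.86. The count of higher genes was 81 without shHIF2A replicate 2 and 93 without shYAPTAZ replicate 2, and that of lower genes was 1 without either of these, 2 without shHIF2A replicate 1 or 3, with counts thinned or with a minimum mean of 10 CPM. The median kept between 0.80 and 0.88 in the 6 fits with 1 library left out. Beside HIF1A and NID2, PAPLN, a matrix protein, averaged 28.5 ± 19.6 CPM in shYAPTAZ and 0.815 ± 0.576 CPM in shHIF2A (32.4-fold higher), and CRIP2, a LIM-domain protein, was 9.41-fold higher. NRXN3, a neurexin, ran against the chromosome, at 6.39 ± 0.403 CPM in shYAPTAZ and 29.8 ± 5.81 CPM in shHIF2A (lower by 4.66-fold, adjusted p = 0.000849).

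Chromosome 13 differed the other way. Of its 204 tested genes 42 were called lower in shYAPTAZ (20.6%, against 6.31% of all tested genes) and 6 higher (2.94%, against 8.15%). The median log2 fold change of the chromosome was -0.52, that is 1.43-fold lower. Counts of chromosome 13 took 0.943%, 0.940% and 0.915% of the shYAPTAZ libraries, against 1.38%, 1.36% and 1.36% of the shHIF2A libraries. The medians of 4 consecutive segments of 51 tested genes were -0.64, -0.49, -0.46 and -0.51. The count of lower genes was 20 without shYAPTAZ replicate 2 and 21, 24 and 27 without shHIF2A replicates 2, 1 and 3. Beside SHISA2, LATS2, COL4A1, COL4A2 and HSPH1, the lower genes include RPL21, a ribosomal protein, at 919 ± 7.81 CPM in shYAPTAZ and 1593 ± 103 CPM in shHIF2A (adjusted p = 0.000286). Besides DNAJC15 and POSTN, GJB2, the gap junction protein connexin 26, ran against the chromosome and was 17.6-fold higher (adjusted p = 8.88e-05).

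**Figure D5:**
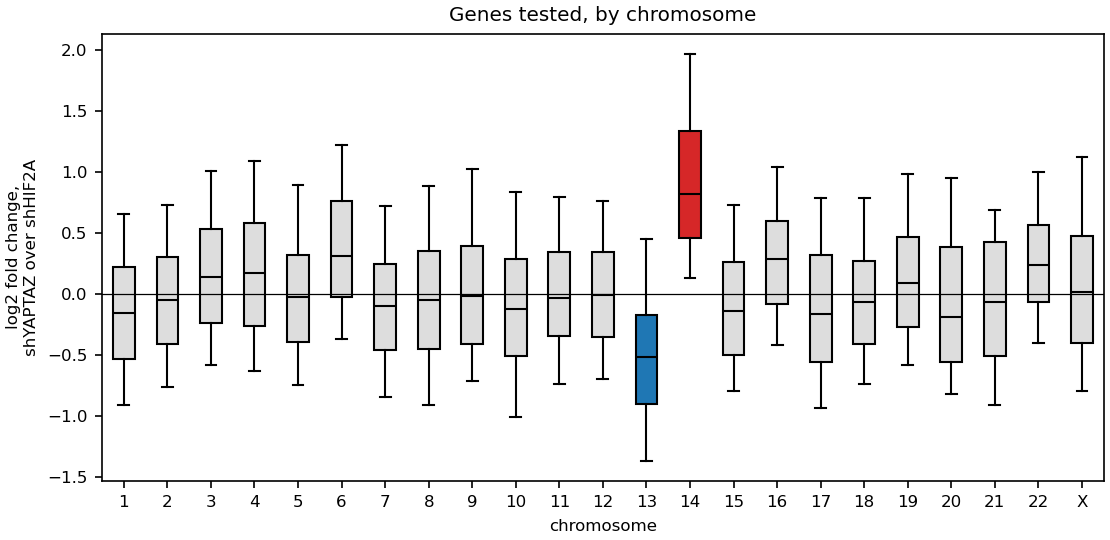
Log2 fold change, shYAPTAZ over shHIF2A (vertical), of tested genes by chromosome (horizontal), with boxes over the middle 50% of genes, a line at the median and whiskers from the 10th to the 90th percentile. The box of chromosome 14 (red) lies wholly above 0 and that of chromosome 13 (blue) wholly below 0, while the boxes of the other 21 chromosomes all cross 0.

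The medians of the other 21 chromosomes lay between -0.19 (chromosome 20) and 0.31 (chromosome 6). With both chromosomes set aside, 760 of the remaining 10666 tested genes were higher and 664 lower. A fit without their genes called 756 higher and 605 lower. The list of HIF2A targets holds 1 tested gene of chromosome 14 and none of chromosome 13, and that of YAP/TAZ targets 1 of chromosome 13 and none of chromosome 14. Lists with 2 tested genes on chromosome 14 were the HIF subunits, the Hippo pathway, interferon-stimulated genes, the integrated stress response, NF-kB genes and the TGF-beta pathway. The part that these chromosome-wide differences have in single genes there was not tested.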

How the data were processed

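RNA was measured in 3 shYAPTAZ and 3 shHIF2A libraries. The authors deposited raw counts per gene, made with Trim Galore and STAR on hg38 per the submitters' processing notes. The columns have the layout of featureCounts per the file headers. The sources used here do not give the counting program, strand use, annotation release, tool versions or the use of molecular identifiers, so counts of paralogs, antisense genes and overlapping genes are uncertain. After the header the table had 62705 lines. A gene with values split across 3 lines was dropped, leaving 62702 genes, of which 62624 had a symbol in a table of gene IDs. Coordinates are those of the deposited table.

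The 6 libraries were fitted alone (edgeR 4.0.16, R 4.3.3): filterByExpr chose the genes, libraries were scaled by TMM, and a robust quasi-likelihood model gave 1 mean per group (common dispersion 0.0701, a coefficient of variation of 26.5%). A gene was called where its p, adjusted by Benjamini-Hochberg over all 11256 tested, was under 0.05. The test was also run on simulated counts with known changes, drawn with the common dispersion for every gene. That run does not check spread that differs between genes or shifts of whole chromosomes. Levels are edgeR CPM. Folds against a group with no count use a floor of 3 counts over the group, and groups with 1 to 3 counts get an exact 95% Clopper-Pearson interval of the ratio; intervals and floors cover counting error only. The fold of a gene is 2 to the power of edgeR's log2 fold change.

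Named genes are those of the HIF subunits, oxygen sensors and TEAD factors; the 12 largest changes in each direction among genes averaging 10 CPM or more with a plain symbol and libraries that did not overlap; the 6 smallest p of HIF2A and of YAP/TAZ targets and up to 4 of each other list, per direction; the 4 smallest p overall per direction; and the 4 largest changes per direction on chromosomes 13 and 14. Some genes meeting this rule are left out here. Other genes were picked after their values were seen (VEGFA, CCN2, ANKRD1, and AEN in a plot). The comparison, the 39 lists and the rule were chosen with earlier results of these data known. Alternatives were DESeq2 1.42.0, limma-voom (limma 3.58.1), other scalings and filters, thinned counts, all 12 libraries, a replicate block, and leaving out each library.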

Additional observations from a re-analysis of the deposited data

How the results depend on the processing

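The 3 shRNA targets kept direction and call under all 17 alternatives, and no called gene that the rule names changed sign under them. The counts of called genes depended on the libraries: with 1 library left out, between 487 and 1074 genes were higher and between 305 and 945 lower. A fit of all 12 libraries, which tests more genes on a pooled spread, called 1073 lower. DESeq2 called 1029 higher and 794 lower, and limma-voom 857 and 735. The share of higher genes among those called stayed between 52.7% and 62.2%. The median of HIF2A targets was 0.33 to 0.60 with 1 library left out. Besides the 3 shRNA targets, the rule names 189 called genes, of which 123 kept their call in every alternative that tested them and 66 lost it in at least 1; the cause was not tested. TEAD3, which was not called, changed sign with 1 library left out, between -1.68 (without shYAPTAZ replicate 2) and 0.29 (without shYAPTAZ replicate 3). Of 612 medians of the other lists under alternatives, 596 moved by less than the replicate spread and 16 by more.

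The labels number the replicates 1 to 3 in both lines. With that number as a replicate block, 1395 of 11256 tested genes were higher and 1244 lower. All 917 and 710 genes of the fit without it were among them. The block also called ARNT2 lower (edgeR adjusted p = 0.0418). Called higher were 19 of 31 mitosis, 11 of 22 Wnt and 10 of 31 DNA replication genes, 8 of 21 AP-1 targets and 1 of 26 p53 targets. Called lower were 9 of 21 sterol synthesis and 7 of 15 heat shock genes, 2 AP-1 targets, 1 of 20 NRF2 targets and 7 of 386 chromosome 14 genes. Without the block, 2 DNA replication genes were higher (6.45%, against 8.15% of all tested genes) and 0 lower. Of the AP-1 targets, 4 were higher (19.0%) and 1 lower (4.76%, against 6.31%). The numbers were not taken to pair the samples. Deviations of same-numbered libraries from their group means correlated at 0.205, 0.0254 and 0.266. Each shYAPTAZ replicate correlated best with the shHIF2A replicate of its number. In the other direction, shHIF2A replicate 2 correlated best with shYAPTAZ replicate 1 (0.0503). Replicate 1 of shYAPTAZ and replicate 3 of shHIF2A correlated at -0.236, and replicate 3 of shYAPTAZ and replicate 1 of shHIF2A at -0.216. What same-numbered replicates 1 and 3 share between the lines was not tested. Depth limits genes under about 1 CPM, where 3 counts in a library equal 0.727 to 1.32 CPM of its total.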

Other observations

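Signalling lists outside the HIF and Hippo pathways also held called genes. Of 22 Wnt genes tested, 7 were higher in shYAPTAZ (31.8%, against 8.15% of all tested genes) and 1 lower, with a median log2 fold change of 0.79. DKK3, a secreted relative of the Wnt inhibitors of the Dickkopf family, had 240.2, 177 and 175 CPM in shYAPTAZ, against 64.9, 49.2 and 48.5 CPM in shHIF2A (3.63-fold higher, edgeR adjusted p = 5.76e-05). TCF7, a transcription factor of the pathway, averaged 18 ± 4.98 CPM in shYAPTAZ and 1.82 ± 0.998 CPM in shHIF2A (adjusted p = 0.00134), and the ligand WNT5B 10.8 ± 2.61 CPM and 1.19 ± 0.781 CPM (adjusted p = 0.00581). The count of higher Wnt genes was 4 without shHIF2A replicate 1 or 3 and with a minimum mean of 10 CPM, and 11 in the fit of all 12 libraries, and that of lower ones 0 without shHIF2A replicate 1 or 2 or shYAPTAZ replicate 2. In the TGF-beta pathway 5 of 27 genes were higher (18.5%, against 8.15% of all tested genes) and 4 lower (14.8%, against 6.31%), with a median log2 fold change of -0.02, and 1 was lower without shYAPTAZ replicate 2. With a minimum mean of 10 CPM, 3 were higher. BMP4, a ligand on chromosome 14, had 69 counts over the shYAPTAZ libraries and 1 over the shHIF2A libraries, a ratio of 69.5 (95% exact interval 12.1 to 2785). The receptor genes TGFBR2 and BMPR2 were 1.91- and 2.13-fold higher (adjusted p = 0.00315 and 0.00566), and FSTL1, which binds BMPs, was 2.11-fold lower, at 1182 ± 251 CPM in shYAPTAZ and 2496 ± 455 CPM in shHIF2A.

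Of 20 NRF2 targets, genes of defence against oxidants, 6 were higher in shYAPTAZ (30%, against 8.15% of all tested genes) and 0 lower by edgeR, with a median log2 fold change of 0.04, and 3 were higher without shHIF2A replicate 2. At an unadjusted p under 0.05, 1 of the 20 was lower, and DESeq2 and limma-voom called 0 lower, while edgeR called 1 lower without shYAPTAZ replicate 3. AKR1B10, an aldo-keto reductase, had 124, 122 and 443 CPM in shYAPTAZ, against 12.4, 9.89 and 7.96 CPM in shHIF2A (adjusted p = 0.00198), with shYAPTAZ replicate 3 highest. AKR1C3, of the same enzyme family and with close paralogs, and ABCC3, an exporter of conjugates, were 3.16- and 2.41-fold higher (adjusted p = 0.00325 and 0.00279). RPS4X, a ribosomal protein gene on the X chromosome, had 4544, 3906 and 3652 CPM in shYAPTAZ, against 1898, 1888 and 1775 CPM in shHIF2A (2.18-fold higher, adjusted p = 1.64e-05), while the median log2 fold change of 54 ribosomal protein genes was -0.06. NEFL, a neurofilament gene that made up most of the summed level of the neural markers, had 2339.9, 2438 and 1891 CPM in shYAPTAZ, against 1575, 1445 and 1114 CPM in shHIF2A (adjusted p = 0.0053). The 14 endothelial markers summed to 6.37 to 12.2 CPM in shYAPTAZ and 20.1 to 33.4 CPM in shHIF2A, with 7 at 0 in all 6 libraries and EGFL7 the tested one (adjusted p = 0.00557).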
